A study of Mus musculus with 6 samples.

Results

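BC018473 is a noncoding gene on mouse chromosome 11 that was selected because it had the largest fitted rise of all tested genes in the lungs of mice with a deletion in Zpbp2. It is described here with 5 protein-coding genes of the same stretch of the chromosome, St6galnac2, St6galnac1, Mxra7, Jmjd6 and Srsf2, which were listed for their position. These are 6 of the 41388 genes in the count table, found by their symbols, and all 6 were found once. BC018473 was chosen on the same contrast that is described, so its values are given as a description with no test.

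Lung RNA of adult mice was sequenced in 6 libraries, collected at Zeitgeber time 7 (ZT7, 7 h after lights on). The labels give C57BL/6J as the strain of every library and place 3 libraries in WT and 3 in Zpbp2 KO, here WT1 to WT3 and KO1 to KO3. The KO mice lack the start of Zpbp2, including part of its promoter, in every cell, and belong to the strain B6.129S7-Zpbp2tmZuk/Mmjax, on a C57BL/6J background, which was kept in the same colony as the C57BL/6J controls. The study asked how the Zpbp2 region affects gene expression and the circadian clock. The KO mice are 1 line, so a difference of that line other than the deletion cannot be told apart from the deletion. Age and sex were not given per library in the sources used here.

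Total counts ranged from 59134950 to 71354388 per library. Zpbp2, a sperm protein gene, had counts of 20, 15 and 7 in the WT libraries and of 1, 0 and 0 in the KO libraries, at least 3.91-fold lower. KO2 and KO3 differed by only 1.71 to 3.32 times the variance that counting gives over 4 ranges of expression, where WT1 and WT2 differed by 1.86 to 51.6 times, so KO2 and KO3 were counted as 1 sample. The labels name them as separate samples, and whether they are 1 library deposited under both names or closely handled ones cannot be told from counts, so a KO mean rests on KO1 and this pair. Each mean below is given ± SD, with n = 3 for WT and n = 2 for KO. Levels are given in CPM (counts per 1 M of the library size, scaled by TMM factors), and 3 counts, 0.0409 to 0.0513 CPM, were taken as the floor of a library, which covers counting error only. With edgeR's quasi-likelihood test, 426 of 18660 tested genes (2.28%) had an adjusted p of at most 0.05, which is what "called" means here, and 257 (1.38%) were called higher in KO. Calls were 60.3% higher in KO with TMM scaling and 38.2% higher with library size alone. Called genes lay close to the threshold, since the smallest adjusted p of any gene was 0.0251. Without any 1 WT library no gene was called, although 3346 to 4193 genes had an unadjusted p of at most 0.05, and without KO1 17 genes were called. Every call below is subject to this limit.

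Most long noncoding RNA genes are transcribed at low levels and in few tissues, and the Ensembl type "antisense" is given to those that run opposite to a coding gene or its surroundings. St6galnac1 and St6galnac2 are Golgi enzymes that add sialic acid to the N-acetylgalactosamine of O-linked glycans, sugar chains carried by mucins and other secreted and surface proteins. Jmjd6 is an oxygenase with a JmjC domain that modifies splicing regulatory proteins, and Srsf2 is a serine- and arginine-rich (SR) protein that binds pre-mRNA and promotes the choice of splice sites. Mxra7 encodes a matrix remodelling associated membrane protein of less certain role.

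BC018473 (ENSMUSG00000056032) lies on the plus strand at chr11:116752167-116759373 (GRCm38, GENCODE M21), 18.19 Mb from Zpbp2. It spans 7207 bases, of which 5471 are exonic, and has 4 annotated transcripts. Although its type is antisense, no gene of that annotation overlaps its span. Its transcripts differ in their first exons, and 1 of them extends the last exon that the others share. 1 exon, of 156 bases, is the same in all 4, at chr11:116754334-116754489. That exon is shown, since it is the only one annotated with the same start and end in every transcript. It stands in capitals as read in the spliced transcript BC018473-204, on the plus strand. The 40 bases on each side, in lower case, belong to the exons joined to it in that transcript. They do not adjoin it in the genome. Of the exon, 48.1% is G or C.

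BC018473 shared exon: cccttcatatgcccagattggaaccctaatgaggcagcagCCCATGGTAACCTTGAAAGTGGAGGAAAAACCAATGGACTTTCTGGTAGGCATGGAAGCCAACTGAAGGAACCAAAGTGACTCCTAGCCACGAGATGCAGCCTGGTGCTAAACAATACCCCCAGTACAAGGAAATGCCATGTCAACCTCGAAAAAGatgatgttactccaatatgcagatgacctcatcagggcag

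BC018473 RNA was at or near 0 in WT lung and clearly present in KO lung. Its counts were 0, 5 and 2 in WT1 to WT3 and 857, 956 and 943 in KO1 to KO3, or 0, 0.0712 and 0.0333 CPM against 13.6, 15.4 and 16.1 CPM. The 3 KO libraries stood together, and the groups were far from overlapping. Averaged by genotype, WT was at 0.0348 ± 0.0356 CPM and KO at 14.7 ± 1.53 CPM. The pooled counts of 7 and 2756 gave a ratio of 437, with a 95% exact interval of 212 to 1087 that covers counting error only. The fitted log2 fold change was 8.67 (SE 0.79), the highest of the tested genes in the direction of KO, where the next was 8.38. Counting both directions, 2 genes, both lower in KO, had a larger absolute value. Over the 14 alternative analyses that gave a value it was between 7.93, with a prior count of 2, and 9.77, without WT2, and BC018473 was higher in KO in each.

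No other gene of the table went from at most 0.1 CPM in every library of one genotype to at least 1 CPM in every library of the other, in either direction. In KO, BC018473 ranked 18 to 20 of the 1102 to 1134 detected genes of the antisense type, and its level was above that of 56.2% to 58.7% of all detected genes. In WT2 and WT3 it ranked 712 and 867 in the same type, and in WT1 it was not detected. Of the other 625 tested genes of the antisense type, RP23-456M3.4 was called higher and A830036E02Rik lower, 0.32% against the 2.28% of all tested genes, and their median log2 fold change was 0.032.

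**Figure D1:**
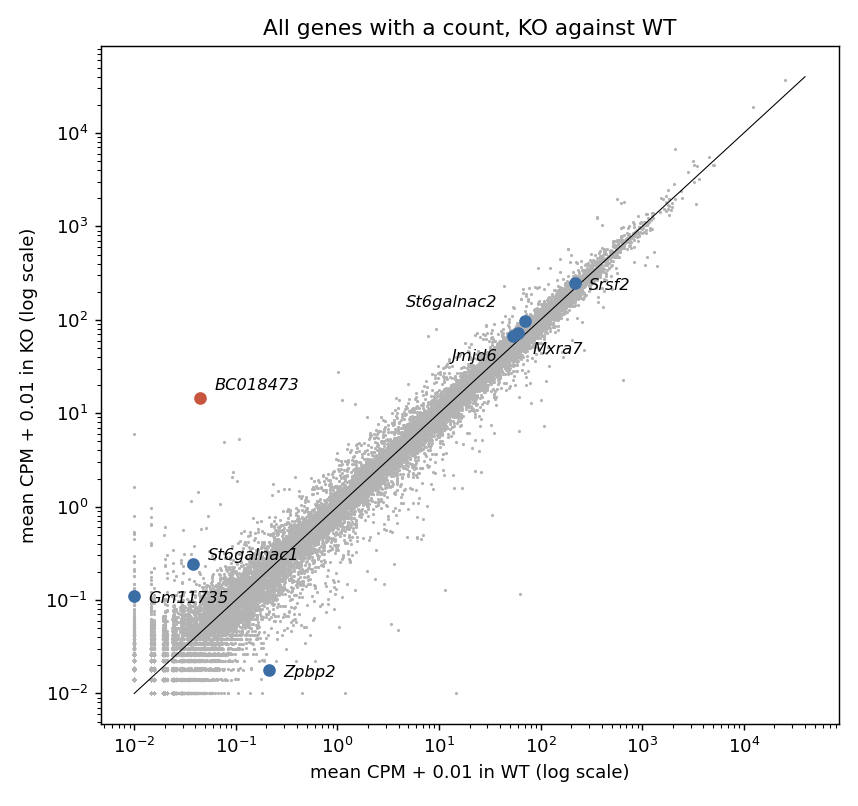
Mean level of each gene with at least 1 count, WT on the horizontal and KO on the vertical axis, in CPM plus 0.01 on log scales. Each grey point is 1 gene and the line marks equal levels. BC018473 stands far above the line at 0.0348 CPM in WT and 14.7 CPM in KO, and Srsf2, St6galnac2, Mxra7 and Jmjd6 lie close to the line.

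A pair of sialyltransferase genes flanks BC018473, both on the minus strand. St6galnac1 (ENSMUSG00000009588, chr11:116765025-116775507) is the nearest coding gene, 5.65 kb away, and shares no exon with any annotated gene. Its counts were 3, 3 and 0 in WT1 to WT3 and 19, 12 and 8 in KO1 to KO3, or 0.0409, 0.0427 and 0 CPM against 0.302, 0.193 and 0.137 CPM. All KO values were above all WT values, but every WT library was at or under the floor. WT averaged 0.0279 ± 0.0242 CPM and KO 0.233 ± 0.0966 CPM, and the KO mean was 4.67 times the highest floor of a WT library. The pooled counts of 6 and 39 gave a ratio of 7.21 with a 95% exact interval of 3.03 to 20.8, again for counting error only and not for the spread between libraries. St6galnac1 passed the filter on low counts only through its KO libraries, as BC018473 did. It was not called, with an edgeR adjusted p of 0.1, nor in the 11 alternatives that gave an adjusted p, which was between 0.0915 and 0.242.

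On the other side of BC018473, 2.33 kb away on the minus strand, lies the unprocessed pseudogene Gm11735, which was named after its values were seen. No WT library had a count of it, and KO1 to KO3 had 7, 5 and 6, which is 0.101 ± 0.0138 CPM, at least 2.03-fold higher. It was too low to be tested. The genes next to BC018473 on both sides therefore had their few counts mainly in KO, at levels far under that of BC018473.

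St6galnac2 (ENSMUSG00000057286, chr11:116675303-116694868, minus strand) lies 57.30 kb from BC018473 and was the sialyltransferase of this pair that WT lung expressed. Its levels were 70.0, 70.7 and 70.2 CPM in WT and 96.0, 96.2 and 97.1 CPM in KO. Both groups were tight and did not overlap. St6galnac2 rose 1.37-fold, from 70.3 ± 0.371 in WT to 96.3 ± 0.420 CPM in KO (log2 fold change 0.46, SE 0.04, edgeR adjusted p 0.0446). It was called in 10 of 15 alternatives. The call was lost without WT1, WT2, WT3 or KO1 (adjusted p 0.17, 0.189, 0.123 and 0.0829) and with an offset for gene length and GC content (0.107), while the log2 fold change stayed between 0.40 and 0.50 in all 15.

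The exons of St6galnac2 share 497 bases (8.58%) with the noncoding gene 1810032O08Rik on the plus strand. That gene averaged 6.80 ± 0.376 CPM over WT and 9.93 ± 1.5 over KO and was not called (log2 fold change 0.55, SE 0.13, edgeR adjusted p 0.0774). The use of strand in counting was not given in the sources used here, so reads of the shared bases cannot be assigned to one of the genes. A second, shorter gene model named St6galnac2 shares 383 bases (6.61%) and was not in the table.

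**Figure D2:**
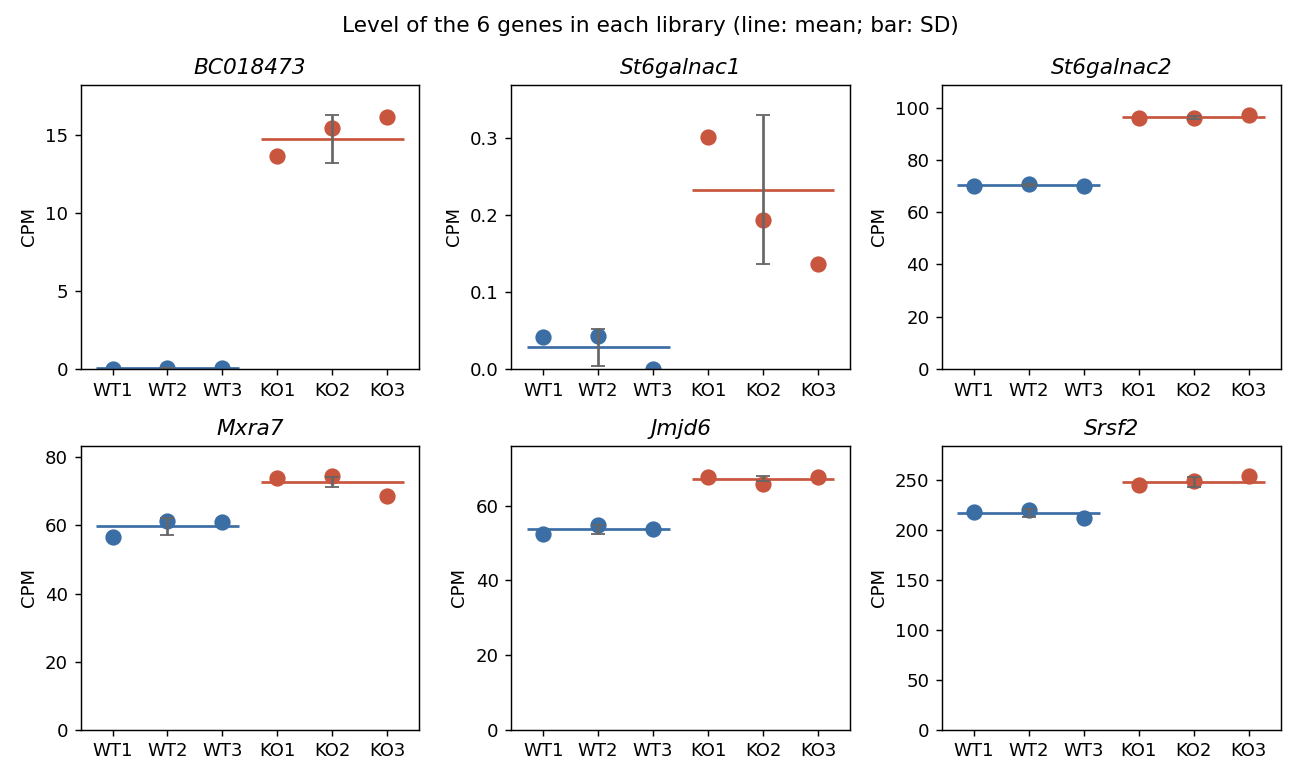
CPM of the 6 genes in each library, with WT in blue and KO in red, horizontal lines for the group means and bars for the SD (n = 3 for WT and n = 2 for KO, with KO2 and KO3 as 1 sample). Each panel has its own linear axis from 0, and in each the lowest KO library lies above the highest WT library.

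Mxra7 (ENSMUSG00000020814, chr11:116803062-116828046, minus strand, 43.69 kb away) shares no exon with another gene. It was at 56.7, 61.3 and 61.1 CPM in WT and 73.8, 74.5 and 68.6 CPM in KO, without overlap. The means of 59.7 ± 2.60 and 72.7 ± 1.54 CPM differed by 0.29 on the log2 scale (SE 0.05), which was not called (edgeR adjusted p 0.0551). It was called in 3 of 15 alternatives, those with all 6 libraries separate, with DESeq2 and with at least 10 counts in every library, and its log2 fold change was between 0.17 and 0.32.

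Jmjd6 (ENSMUSG00000056962, chr11:116837432-116843449, minus strand, 78.06 kb away) was at 52.5, 54.9 and 53.8 CPM in WT and 67.8, 65.9 and 67.8 CPM in KO. The gap between the groups was wider than the range within either of them. Jmjd6 rose 1.26-fold, from 53.7 ± 1.21 in WT to 67.3 ± 0.665 CPM in KO (log2 fold change 0.33, SE 0.04, edgeR adjusted p 0.0446). It was called in 8 of 15 alternatives. Among the others, leaving out WT1, WT2, WT3 or KO1 ended the call (adjusted p 0.172, 0.189, 0.123 and 0.1), as did the length and GC offset (0.129) and scaling by library size alone (0.0526), at a log2 fold change of 0.28 to 0.34 in all 15.

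Srsf2 (ENSMUSG00000034120, chr11:116849901-116853094, minus strand, 90.53 kb away) was the most abundant of the 6 genes. It was at 218, 220 and 212 CPM in WT and 245, 249 and 254 CPM in KO, again without overlap. The means of 217 ± 4.24 and 248 ± 5.03 CPM differed by 0.20 on the log2 scale (SE 0.05), which was not called (edgeR adjusted p 0.0908). It was called in 2 of 15 alternatives, those with all 6 libraries separate and with DESeq2.

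Mettl23, a methyltransferase-like gene on the plus strand, starts inside the first part of Jmjd6, reaches Srsf2 and shares 172 exonic bases (3.66%) with the first and 460 (15.6%) with the second. Mettl23 averaged 13.1 ± 0.775 CPM over WT and 14.4 ± 1.03 over KO, and the libraries overlapped (edgeR adjusted p 0.402). Mfsd11, a transporter-like gene that shares 288 bases (9.74%) with Srsf2, was at 29.9 ± 0.542 CPM and 30.3 ± 1.57 CPM (edgeR adjusted p 0.845). These plus-strand neighbours of Jmjd6 and Srsf2 thus had log2 fold changes of 0.14 and 0.02, against 0.33 and 0.20 in the genes they overlap, with no test between genes. Leaving out 1 library moved the value of Mettl23 between 0.06 (without KO1) and 0.18 (without WT1). Gm27401, which shares 173 bases with Jmjd6, had 0 counts.

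In all 5 coding neighbours every KO library was above every WT library, an order that 20.1% of all tested genes had. St6galnac1 passed the filter on low counts only through KO, so that this order was favoured in it. St6galnac2 and Jmjd6, 2 of the 5, were called higher, where 1.38% of all tested genes were. As the genes were listed with earlier results of these data known, these counts are descriptions.

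Per kb of exon, the order of the levels in WT was Srsf2 (73.3 CPM per kb), Mxra7 (25.0), St6galnac2 (12.1), Jmjd6 (11.4), St6galnac1 (0.0117) and BC018473 (0.00637). The last 2 had at most 5 counts in a WT library and overlapped, while the other steps were wider than the spread over libraries. In KO the order was Srsf2 (83.9 CPM per kb), Mxra7 (30.4), St6galnac2 (16.6), Jmjd6 (14.3), BC018473 (2.69) and St6galnac1 (0.0976), with no overlap between adjacent genes. In KO, BC018473 thus lay above St6galnac1 and below the 4 expressed coding genes.

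The promoters of the neighbours that lay higher in KO are shown for what they hold in common. RefSeq entries (GRCm38.p6, windows that span a start and lie mostly before it) were matched for 3 of the 6 genes, Mxra7, Jmjd6 and Srsf2. Capitals mark matches, on either strand, to CCAAT, to the GC box GGGCGG and to the TATA box TATAAA. The 3 lie on the minus strand, at chr11:116827997-116828296, chr11:116843400-116843699 and chr11:116853045-116853344.
Mxra7 promoter: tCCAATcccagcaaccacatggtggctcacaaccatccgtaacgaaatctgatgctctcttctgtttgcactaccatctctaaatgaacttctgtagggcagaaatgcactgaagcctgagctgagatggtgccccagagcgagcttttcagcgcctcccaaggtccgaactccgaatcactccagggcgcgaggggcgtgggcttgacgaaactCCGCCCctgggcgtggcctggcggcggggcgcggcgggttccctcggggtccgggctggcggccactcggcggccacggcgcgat
Jmjd6 promoter: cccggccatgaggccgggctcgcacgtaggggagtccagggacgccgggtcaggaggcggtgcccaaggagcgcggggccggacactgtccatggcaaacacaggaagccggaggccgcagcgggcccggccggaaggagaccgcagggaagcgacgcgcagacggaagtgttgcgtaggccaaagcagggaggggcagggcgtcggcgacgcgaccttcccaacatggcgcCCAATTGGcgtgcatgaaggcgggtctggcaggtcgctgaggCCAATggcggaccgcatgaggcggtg
Srsf2 promoter: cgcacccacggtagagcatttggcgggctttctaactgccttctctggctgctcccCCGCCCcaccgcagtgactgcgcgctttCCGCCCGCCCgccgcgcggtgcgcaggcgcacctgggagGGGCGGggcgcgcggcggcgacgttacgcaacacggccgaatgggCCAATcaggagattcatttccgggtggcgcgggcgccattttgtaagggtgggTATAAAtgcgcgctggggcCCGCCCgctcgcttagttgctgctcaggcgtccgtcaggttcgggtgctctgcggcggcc

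All 3 promoters were rich in G and C, at 62.7%, 70.7% and 69.3%, and held 25, 33 and 39 CpG dinucleotides. CCAAT was matched 1, 3 and 1 times (overlapping matches counted) and occurred in 37.4% of the 32851 promoters of this length. GGGCGG was matched 1, 0 and 5 times (35.7% of promoters) and TATAAA once, in Srsf2 (13.6%). The letters CACGTG, the E-box bound by clock factors, and AGGTCA, the core bound by Nr1d1, were not in these windows and occurred in 7.15% and 16.3% of promoters. A second Mxra7 entry, which starts further upstream, held 1 CCAAT and no other match.

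To see how far the pattern reached, all genes within 500 kb of BC018473 were described. Of 48 annotated genes besides BC018473, 46 were in the table and 27 were tested. St6galnac2, Jmjd6 and Ubald2 were called higher and 0 were called lower, where 2.28% of all tested genes were called. Ubald2, a gene of a UBA-like domain protein 313.09 kb away, rose from 6.52, 6.07 and 6.30 CPM in WT1 to WT3 to 10.6, 9.76 and 9.11 CPM in KO1 to KO3 (log2 fold change 0.68, SE 0.10, edgeR adjusted p 0.0496). Its call was also lost without KO2 (0.0523), with no filter on low counts (0.0559), with library size alone (0.0538) and with the length and GC offset (0.185). Of the 27, 22 lay higher and 5 lower in KO (52.2% of all tested genes lay higher), with a median log2 fold change of 0.20 against 0.02 for all tested genes, and in 12 (44.4%) the KO libraries all lay above the WT libraries, beside 20.1% of all tested genes. Without the 5 listed neighbours these were 17 higher and 5 lower of 22, a median of 0.18, and 7 (31.8%). With library size alone 19 of the 27 lay higher and the medians were 0.15 and -0.04.

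**Figure D3:**
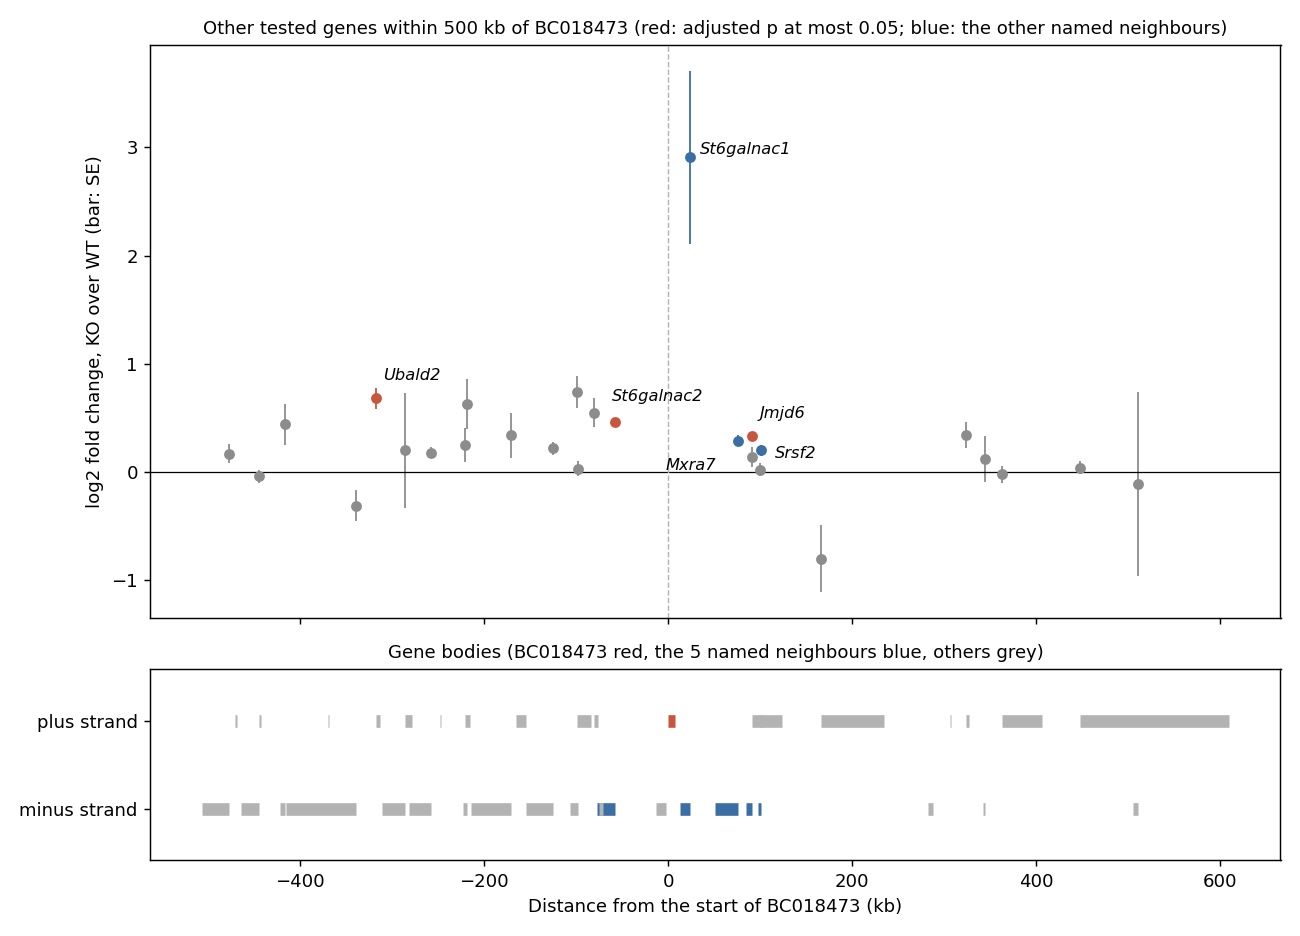
The upper panel shows the log2 fold change of KO over WT (points, with the SE as bars) of the other tested genes within 500 kb of BC018473, placed by the distance of their start from that of BC018473 in kb, and the lower panel shows the gene bodies by strand. The called genes (red) are St6galnac2, Jmjd6 and Ubald2, most other points lie between 0 and 1, the fitted 2.91 of St6galnac1 rests on WT libraries at the floor and is no bound, and BC018473 itself, at 8.67, is not drawn.

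Related genes elsewhere in the genome were counted by list. Of 19 tested sialyltransferases, St6galnac2 was called higher and St8sia4, which builds polysialic acid, was called lower, where 2.28% of all tested genes were called, and the median log2 fold change was -0.07, or -0.00 with the length and GC offset. St8sia4 averaged 39.8 ± 0.778 CPM over WT and 31.3 ± 0.384 over KO (log2 fold change -0.34, edgeR adjusted p 0.0472), but with the length and GC offset its log2 fold change was 0.07. St3gal1 and St6gal1, which with St6galnac2 had the highest mean CPM of the list over both genotypes, both had log2 fold changes of -0.07 and were not called. Of 30 tested genes of mucin type O-glycan synthesis and sialic acid supply, 0 were called by edgeR, 10 had an unadjusted p of at most 0.05 (5092 of all 18660 tested genes), 5 were called by DESeq2 (3919 of all), and the median was 0.06, or 0.02 without WT3, 0.11 without KO1 and 0.01 with library size alone. Galnt18, B4galt1 and Galnt1, its members of highest mean CPM, had log2 fold changes of 0.21, 0.19 and -0.11 and adjusted p of 0.149, 0.165 and 0.384, and Galnt18 was at 0.12 without KO1.

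Of 11 tested mucins, Muc1, a membrane mucin of lung epithelium, was called higher and none was called lower, again beside 2.28% called of all tested genes. Its levels were 237 ± 5.24 CPM over WT and 328 ± 7.66 over KO (log2 fold change 0.48, SE 0.05, edgeR adjusted p 0.0446). Muc5b, the main secreted mucin of the airways, had a log2 fold change of -0.55 and Cd164 of -0.13, with adjusted p of 0.348 and 0.194. The value of Muc5b was -0.13 without KO1. The median of the mucins was 0.27, but 0.12 without WT3 and 0.11 for those with at least 10 counts in every library.

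Of the 28 SR and related splicing factors, which include Srsf2, Srsf9 was called higher and none lower, a share of 3.57% that is near the 2.28% of all tested genes. Srsf9 averaged 39.2 ± 0.498 CPM over WT and 51.7 ± 3.42 over KO (log2 fold change 0.40, edgeR adjusted p 0.0449), and the call was lost without KO2 (0.0522) as well. Of the list, 22 lay higher and 6 lower, with a median of 0.10 (0.06 without WT3 and 0.22 with the length and GC offset), and with library size alone 17 lay higher and 0 were called. Srrm2, Srsf5 and Clk1, of the highest mean CPM, had log2 fold changes of -0.40, 0.14 and 0.03 and were not called, and without KO1 Srrm2 was at -0.19 and Srsf5 at 0.28, while without WT3 Srsf5 was at 0.06. Of 25 tested JmjC oxygenases, Jmjd6 was called higher and none lower (2.28% of all tested genes were called), while 19 of the 25 lay lower in KO, with a median of -0.14, against 16 of 25 and -0.03 with the length and GC offset. Those of the highest mean CPM over both genotypes, Kdm2a, Phf2 and Kdm6b, had log2 fold changes of -0.21, -0.19 and -0.04 and were not called.

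**Figure D4:**
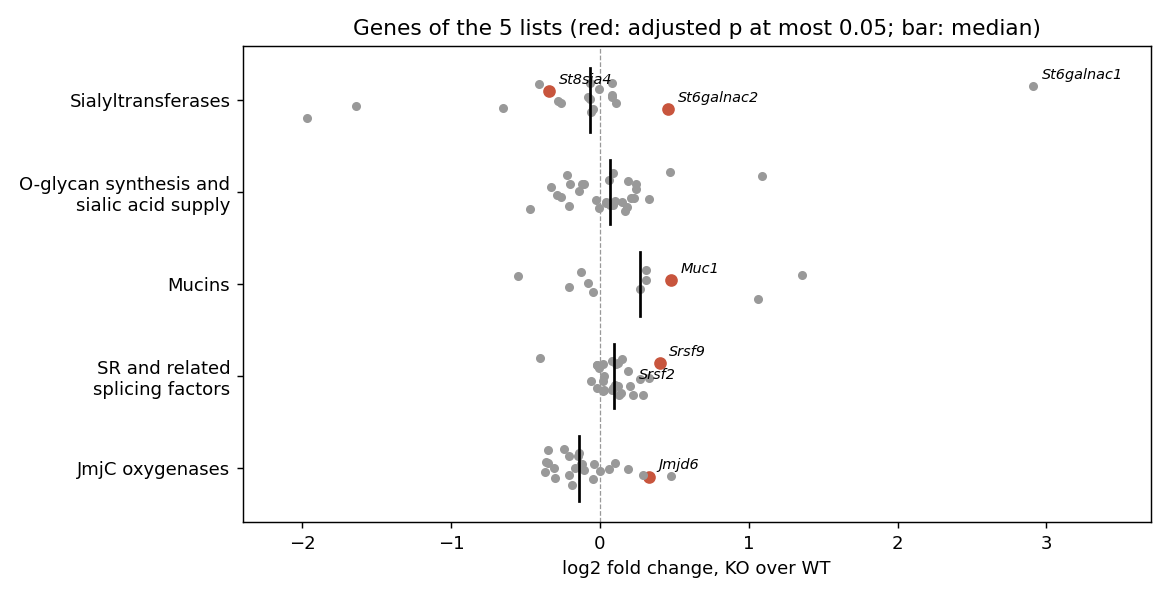
Log2 fold change of KO over WT for each tested gene of the 5 lists, 1 point a gene (the vertical scatter only separates the points), with called genes in red and the median of each list as a black bar. St6galnac2, Muc1, Srsf9 and Jmjd6 are the called genes to the right of 0 and St8sia4 the one to the left, and the medians lie between -0.14 and 0.27.

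Among the genes whose log2 CPM followed BC018473 most closely over the 5 samples were Cib1, Rps6kl1, Crb3 and Sftpa1, each with a Pearson r of at least 0.999. The r of the neighbours was 0.998 for Jmjd6, 0.990 for Mxra7, 0.989 for St6galnac2, 0.953 for Srsf2 and 0.878 for St6galnac1. Of the 18660 tested genes, 88 had at least 0.99. Mxra7, just under 0.99 before rounding, was not among them. The 5 samples form 2 genotypes, so these values mostly measure how evenly a gene separated the genotypes. The mean of Sftpa1, a surfactant protein gene, was 2822 ± 97.6 CPM over WT and 3794 ± 47.6 over KO, and that of Cib1, a calcium-binding protein gene, was 36.8 ± 1.28 and 48.2 ± 0.284 CPM.

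Summed markers of alveolar type 2, alveolar type 1 and club cells were higher in every KO library than in any WT library. The summed level of 5 alveolar type 2 markers was 18955 to 19798 CPM in WT and 27483 to 29133 CPM in KO, and the libraries of KO all lay above those of WT in 4 of the 5. That of 5 alveolar type 1 markers was 3345 to 3497 CPM and 4413 to 4671 CPM. Again 4 of the 5 were in that order, which 20.1% of all tested genes had. The 3 club cell markers summed to 27201 to 31963 CPM in WT and 36691 to 48525 CPM in KO. These sums moved in the same direction as the coding neighbours, and their part in the values of the coding neighbours was not tested. In RNA of whole lung, more cells of a type and more RNA per cell cannot be told apart.

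The other marker sets did not all move in the same direction. The 7 adipocyte markers, at 499 to 918 CPM in WT and 55.7 to 136 CPM in KO, were lower in every KO library, as were 6 of 7 cardiomyocyte markers (2790 to 6711 and 1114 to 1726 CPM in sum), an order that 20.7% of all tested genes had, and their part was not tested. The 10 mucous or goblet markers summed to 573 to 628 CPM in WT and to 314, 596 and 607 CPM in KO. All KO libraries lay above WT in 1 of them (Spdef) and below WT in 1 (Bpifb1). Of all tested genes, 20.1% and 20.7% had these orders. The part of the goblet markers in the level of St6galnac1 was not tested. The 16 squamous epithelium markers were high in WT3 and KO1 only (4558 and 8513 CPM, against 42.5 to 49.6 CPM in the others), while BC018473 was at 0.0333 CPM in WT3 and at 13.6 CPM in KO1. Erythroid markers were at 2400 to 5518 CPM in WT, 3969 CPM in KO1 and 18984 and 19719 CPM in KO2 and KO3. Hepatocyte markers summed to 2.71 to 3.74 CPM over WT, to 5.86 CPM for KO1 and to 41.6 and 42 CPM for KO2 and KO3. The part of these markers in the results was not tested.

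The ciliated and endothelial markers overlapped between the genotypes, at 1890 to 2633 CPM and 2513 to 3162 CPM over the 6 libraries, and 4 testis markers summed to 0.0159 to 0.0409 CPM in WT and KO1 and to 1.03 and 0.702 CPM in KO2 and KO3.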

How the data were processed

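The deposited table holds raw counts of reads per gene, which the authors made from total RNA of lung. The submitters' processing notes name Trimmomatic 0.36, STAR 2.5.3a, Picard 2.9.0, HTSeq 0.6.0 and the mm10 genome. Annotation release, read length and strand setting were not given in the sources used here. All 6 columns were used. Positions, types and exonic lengths came from GENCODE M21 (GRCm38), which held 97.3% of the identifiers. The exon sequence came from the transcript sequences of that release and the promoter sequences from RefSeq entries.

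KO was compared with WT in R 4.3.3 with edgeR 4.0.16 (filterByExpr, TMM factors, glmQLFit and glmQLFTest, two-sided, Benjamini-Hochberg over all 18660 tested genes, threshold 0.05), with KO2 and KO3 summed. The script was tested on simulated counts. DESeq2 1.42.0 and 14 other alternatives (scaling, filters, prior count, offset, block, libraries left out) were run. The genes named were the 6 members, Zpbp2, called or overlapping genes within 500 kb, the called genes of each list and its 3 of highest mean CPM, and the 5 genes most like BC018473, of which 1 is not reported here. The members, gene lists and these rules were chosen with earlier results of these data known. P-values of this comparison measure the spread between the samples as fitted, with KO2 and KO3 as 1 sample.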

Additional observations from a re-analysis of the deposited data

How the results depend on the processing

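Of 445 values over 15 alternatives, 340 kept their side of the threshold or moved little, 41 moved, 39 lost a call, 10 gained one and 15 changed sign. 0 of the 6 members changed sign. With the length and GC offset St8sia4 (0.07), Kdm2a (0.07), St3gal1 (0.01) and Galnt1 (0.00) turned higher, the first being a call in the reported analysis. With library size alone Clk1 and Mfsd11 were both at -0.03, and without WT3 and KO1 Clk1, Mfsd11 and Kdm6b were at -0.02, -0.03 and 0.06. Mfsd11 was also at -0.00 with all 6 libraries separate, with or without the replicate block. Leaving out each replicate gave -0.05 to 0.08 for Clk1, -0.07 to 0.03 for Kdm6b and -0.04 to 0.03 for Mfsd11. The reported values were 426 called genes, 2 called neighbours, 3 called genes within 500 kb and 5 called list genes. With all 6 libraries separate these were 3402, 4, 10 and 23, with DESeq2 3919, 4, 10 and 27, and with at least 10 counts in every library 937, 3, 5 and 9, a filter that BC018473 does not pass. With library size alone they were 306, 1, 1 and 3, and with the length and GC offset 0 each (3469 genes had an unadjusted p under 0.05). Without WT3 and KO1 they were 2256, 2, 8 and 11, with the KO2 and KO3 pair as the lone KO sample. Leaving out each replicate in turn gave 0 to 418 called genes, 0 to 2 neighbours, 0 to 3 genes within 500 kb, 0 to 5 list genes and a log2 fold change of BC018473 of 8.07 to 9.77, the last without WT2. Without any 1 WT library all counts were 0, without KO1 they were 17, 0, 0 and 0, and a lone KO sample was assumed to vary like WT. The cause of these shifts was not tested.

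The replicate numbers did not pair the libraries, since same-numbered libraries deviated together with correlations of -0.48, 0.564 and -0.653. With the replicate block the counts were 516, 1, 1 and 2, 44.4% of the calls were higher, and the log2 fold change of BC018473 was 8.78. St6galnac2 was the called neighbour. Jmjd6, Ubald2, St8sia4 and Srsf9 lost their calls with the block (edgeR adjusted p 0.0516, 0.0537, 0.051 and 0.0536). With 3 counts as the floor, depth limits what can be said of St6galnac1 and Gm11735.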
